A study of Mus musculus with 6 samples.

Results

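The miR-181 family of microRNAs (miRNAs) was measured in prefrontal cortex from 3 BTBR mice and 3 C57BL/6J control mice, all of them males 5 months old. The BTBR mice carried the genotype BTBR T+ Itpr3tf/J, and their labels name C57BL/6J in the field for strain background, as do those of the wild type controls. No mouse received a drug, and each sample came from 1 mouse. BTBR is an inbred line studied for its autism-like behaviour, so it differs from C57BL/6J at many loci and not at a single one. Levels were read on the TaqMan OpenArray rodent panel, with 1 PCR per miRNA assay and sample. Each PCR gave a cycle threshold, the cycle in which the signal passes a set level, so that a lower threshold stands for more miRNA. One cycle was taken as a 2-fold difference, and a raw value of 40, or one under 10, was read as undetermined.

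Members were all assays whose name, without species prefix, strand mark and hairpin copy number, is miR-181a, miR-181b, miR-181c or miR-181d. This gave 3 of 750 miRNA assays: hsa-miR-181a (assay 000480), hsa-miR-181c (000482) and MMU-MIR-181A-2# (002687), all with the identifier suffix A, here called pool A. No assay matched miR-181b or miR-181d, and those members are not analysed here. The names alone chose the assays, but the family was picked with earlier results of these data known, among them the strain difference of hsa-miR-181a. That difference is therefore a description and carries no p. The assay hsa-miR-213 (000516, pool B) is not a member by name. RefSeq lists miR-213 among the older names of the hairpin gene Mir181a-1, and the name stood for the strand on the 3′ side of that hairpin. Its values are given beside those of the family, and it was added after the values were seen.

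A miRNA hairpin is cut into a duplex, and usually 1 strand is kept in the Argonaute complex and pairs with messenger RNAs through its seed, bases 2 to 8. The miR-181 family is conserved in vertebrates, is abundant in brain and in developing lymphocytes, and is best known for tuning the sensitivity of T cell receptor signalling. In neurons miR-181a has been linked to dopamine signalling and to the control of AMPA receptor subunits.

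The mature strands are shown because the family is defined by them and because some of them differ by few bases. All sequences are from RefSeq, build GRCm38.p6, 5′ to 3′, with the seed in capitals, and the target sequences of the assays themselves were not used here, so how well each assay tells near strands apart was not tested.
mmu-miR-181a-5p: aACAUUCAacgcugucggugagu
mmu-miR-181b-5p: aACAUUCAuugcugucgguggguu
mmu-miR-181c-5p: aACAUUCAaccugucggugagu
mmu-miR-181d-5p: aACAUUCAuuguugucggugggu
mmu-miR-181a-1-3p: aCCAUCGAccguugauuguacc
mmu-miR-181a-2-3p: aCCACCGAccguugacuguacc
mmu-miR-181c-3p: aCCAUCGAccguugaguggacc
All 4 strands of the 5′ side share the seed ACAUUCA. Counted from 1 at the 5′ end, miR-181c-5p equals miR-181a-5p with the base at position 11 left out, so the 2 strands differ by 1 base of 23. Over the bases they share without a gap, miR-181b-5p differs from miR-181a-5p by A9U, C10U and A21G, and miR-181d-5p differs from miR-181b-5p by C12U. On the 3′ side the strands separate the 2 miR-181a hairpins: the strand of Mir181a-2 differs from that of Mir181a-1 by U5C and U16C, and U5C lies in the seed. The strand miR-181c-3p shares the seed of miR-181a-1-3p and differs from it by U16G and U19G.

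The same strand miR-181a-5p is cut from 2 loci, so hsa-miR-181a cannot tell them apart, while each 3′ strand belongs to 1 locus. Both hairpins are shown with their mature strands in capitals.
Mir181a-1: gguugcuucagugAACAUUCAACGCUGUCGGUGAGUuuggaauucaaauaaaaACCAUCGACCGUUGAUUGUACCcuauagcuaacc
Mir181a-2: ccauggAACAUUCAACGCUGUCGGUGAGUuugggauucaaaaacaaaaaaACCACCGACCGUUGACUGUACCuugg
In GRCm38.p6, Mir181a-1 lies at chr1:137966455-137966541 on the plus strand, next to Mir181b-1 at chr1:137966639-137966718, and overlaps no other gene of the RefSeq gene table. Mir181a-2 lies at chr2:38852735-38852810 on the plus strand with Mir181b-2 at chr2:38853830-38853918, and both overlap the protein-coding gene Nr6a1 and the long noncoding RNA gene Nr6a1os. Mir181d lies at chr8:84178716-84178787 on the minus strand, and the 5′ strand of its neighbour Mir181c at chr8:84178924-84178945, both outside other genes of that table.

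Readings were more frequent in BTBR than in C57BL/6J over the whole panel. In pool A, which holds the members, 46.4% to 47.7% of 377 assays were read in the C57BL/6J samples and 64.7% and 64.5% in BTBR replicates 1 and 2, while BTBR replicate 3 stood between with 56.2%. In pool B, which holds hsa-miR-213, the shares were 30.6% to 34.6% in C57BL/6J and 30.6%, 43.2% and 36.2% in BTBR. Of 80 spots of the 5 endogenous small RNA controls, 59 to 63 were read in C57BL/6J and 78 to 80 in BTBR. No source used here says which samples shared an array, so array and strain cannot be told apart. Among the assays read in all samples the strains lay close, with a median raw log2 difference (BTBR minus C57BL/6J) of -0.11 in pool A and 0.08 in pool B. The part of these detection shares in the values of hsa-miR-181a and hsa-miR-181c below was not tested.

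The assay hsa-miR-181a was read in all 6 samples, with far lower thresholds in BTBR than in C57BL/6J. Its raw thresholds were 30.61, 29.51 and 28.07 cycles in C57BL/6J replicates 1 to 3, and 20.05, 20.44 and 24.84 cycles in BTBR replicates 1 to 3. The strains did not overlap, and the latest BTBR reading lay 3.23 cycles before the earliest C57BL/6J one. Within BTBR, replicates 1 and 2 stood close together and replicate 3 lay later than both. The C57BL/6J mean was 29.4 ± 1.27 cycles and the BTBR mean 21.78 ± 2.66 cycles (SD, n = 3 each), a difference of 7.62 cycles or 197-fold more in BTBR. Of the 237 assays read in all 6 samples, 34 (14.3%) had strains that did not overlap with more in BTBR, and 43 (18.1%) with more in C57BL/6J.

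**Figure D1:**
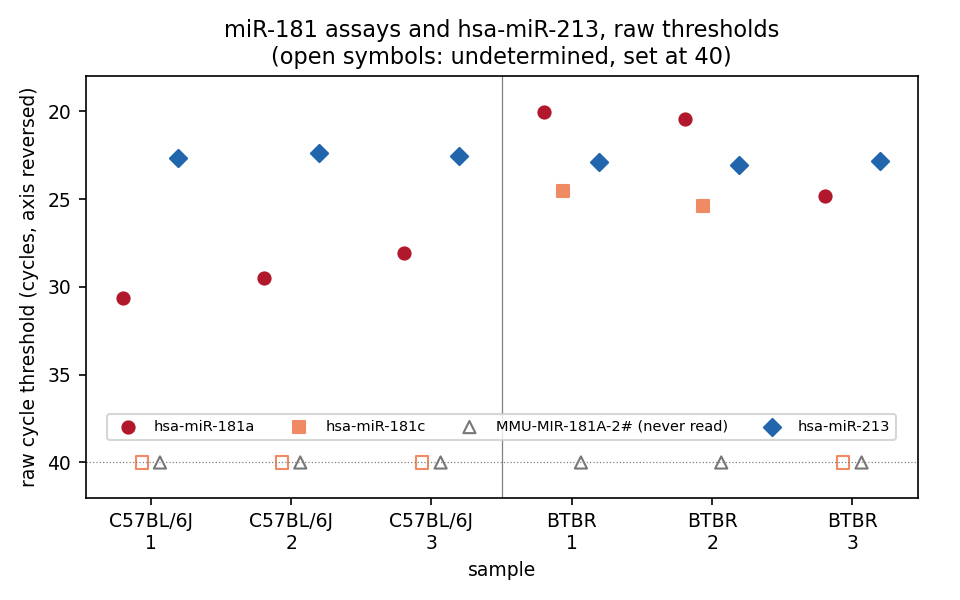
Raw cycle thresholds (y axis, cycles, reversed so that higher means more miRNA) of the 3 miR-181 assays and of hsa-miR-213 in each sample (x axis, 3 C57BL/6J and 3 BTBR mice). Filled symbols are readings and open symbols at 40 are undetermined. The hsa-miR-181a readings span 10.6 cycles, while those of hsa-miR-213 span 0.672 cycles.

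The difference remained large when each sample was centred on its global mean, the mean raw threshold over the assays read in all samples. On that scale hsa-miR-181a stood 7.99, 7.28 and 6.18 cycles later than the mean assay in C57BL/6J. In BTBR the same difference was -1.93 and -1.02 cycles in replicates 1 and 2, that is earlier than the mean assay, and 2.72 cycles in replicate 3. The strain difference there was 7.23 on the log2 scale (standard error 1.27), or 150-fold. Ranked from early to late among the 237 assays, 219 to 227 came before hsa-miR-181a in the C57BL/6J samples. That number was 70, 94 and 171 in BTBR replicates 1, 2 and 3. In C57BL/6J the assay therefore sat among the latest readings of the panel, and in BTBR replicates 1 and 2 among the earlier ones. By raw strain difference it came 2nd of the 237 assays, and 5th of 270 when assays with 2 readings per strain were included.

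**Figure D2:**
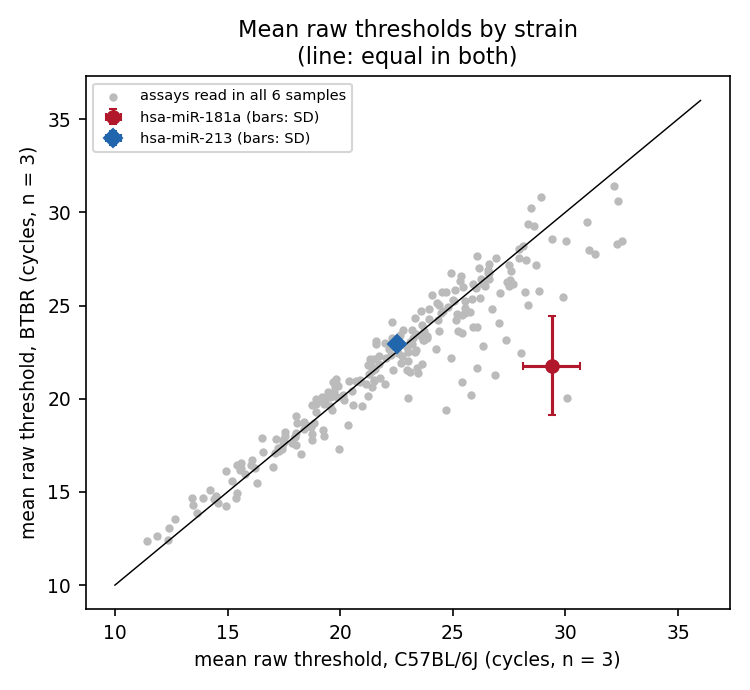
Mean raw threshold in BTBR (y axis, cycles) against that in C57BL/6J (x axis, cycles) for the 237 assays read in all 6 samples, grey points, with the line of equality. The assay hsa-miR-181a (red, SD bars, n = 3 per strain) lies 7.62 cycles below the line and hsa-miR-213 (blue) lies close to it.

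In the authors' normalized table, whose thresholds were brought to common quantiles, the value of hsa-miR-181a in C57BL/6J replicate 1 stands at 40. Its raw reading there, 30.61 cycles, comes to 30.4 cycles in a rebuild of the authors' steps, later than the latest value that the table keeps, 29.19 cycles. The other values were 28.5 and 26.49 cycles in C57BL/6J replicates 2 and 3, and 20.03, 21.78 and 25.52 cycles in BTBR. The strains did not overlap here either, but the gap was only 0.973 cycles. With 40 treated as missing, limma put the log2 change at 5.05 (standard error 1.77), or 33.2-fold more in BTBR, from 2 C57BL/6J and 3 BTBR values. The change of the median assay in that fit was -1.13, so hsa-miR-181a stood 6.18 above the panel. The change was 6.59 without BTBR replicate 3, 4.72 without BTBR replicate 2 and 3.85 without BTBR replicate 1, and it could not be fitted without C57BL/6J replicate 2 or 3. The authors' deposited table gives it as 596-fold higher in BTBR, from strain means of 31.66 and 22.44 cycles in which the value 40 is included. Of the 231 assays in the limma fit, 85 (36.8%) passed an adjusted p of 0.05, 3 higher (1.3%) and 82 lower (35.5%) in BTBR, and hsa-miR-181a was not among them. That count was 0 without C57BL/6J replicate 3 or BTBR replicate 1 (99 and 89 assays at an unadjusted p under 0.05), 3 without C57BL/6J replicate 2 and 8 without BTBR replicate 2. With 40 kept as a value, 26 of the 96 assays that passed were higher.

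The strand hsa-miR-213, from the other side of the Mir181a-1 hairpin printed above, was nearly level across the mice. Its raw thresholds were 22.66, 22.38 and 22.55 cycles in C57BL/6J and 22.9, 23.05 and 22.81 cycles in BTBR. The strains did not overlap, with later readings in BTBR, as for 43 (18.1%) of the 237 assays read in all 6 samples. The means of 22.53 ± 0.139 and 22.92 ± 0.124 cycles (SD, n = 3 each) gave a raw log2 change of only -0.39. The whole range of 0.672 cycles compares with a median range of 1.81 cycles over the 237 assays, of which 14 had a smaller one. On the authors' normalized values its mean was 21.76 ± 0.164 cycles in the 3 C57BL/6J mice and 23.7 ± 0.763 cycles in the 3 BTBR mice (± SD). There it was among the 82 of 231 assays (35.5%) that passed as lower in BTBR. Its log2 change was -1.94 (standard error 0.45, limma adjusted p = 0.0301), which is -0.81 relative to the panel median. With 1 sample left out the change stayed between -2.23 and -1.51, but it did not pass without C57BL/6J replicate 2 (log2 change -1.85, limma adjusted p = 0.0783) or 3 (-1.97, 0.0685), nor without BTBR replicate 1 (-2.08, 0.0727) or 2 (-1.51, 0.0544). On the global mean scale the change was -0.78 (standard error 0.39, limma adjusted p = 0.252).

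The raw difference between both strands within a sample is not moved by a shift common to all assays of that sample, though quantiles or a scaling per pool can move it. It holds the efficiency of both assays, so only its change between samples is read. In raw thresholds, hsa-miR-181a minus hsa-miR-213 was 7.95, 7.13 and 5.52 cycles in the C57BL/6J samples. In BTBR it was -2.85 and -2.62 cycles in replicates 1 and 2, and 2.03 cycles in replicate 3. The strain means were 6.87 ± 1.24 and -1.14 ± 2.75 cycles (SD, n = 3 each), a change of -8.01 cycles, and -9.60 without BTBR replicate 3. The same change was -7.06 cycles on the authors' normalized values, with 5 samples. Since hsa-miR-181a also arises from Mir181a-2 and the assays lie in different pools, this is a difference between assays and not a strand ratio of 1 hairpin.

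For context, 34 pairs of assays, matched by name as strands of a hairpin, were read in all 6 samples. They fell under 30 other hairpin names. The size of the strain change in their within-sample difference had a median of 0.818 cycles and ranged from 0.0127 to 6.52 cycles. Of these pairs, 25 had 1 assay in each pool. A name with no strand mark was matched with a marked one, without a check that both strands were held. Thus hsa-miR-338-3p was set against hsa-miR-338, although HSA-MIR-338-5P is a separate assay. Names that arise from more than 1 locus were not set apart. None of the 34 changed by more than hsa-miR-181a against hsa-miR-213, which is a description, since the value of hsa-miR-181a was known when the family was chosen.

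**Figure D3:**
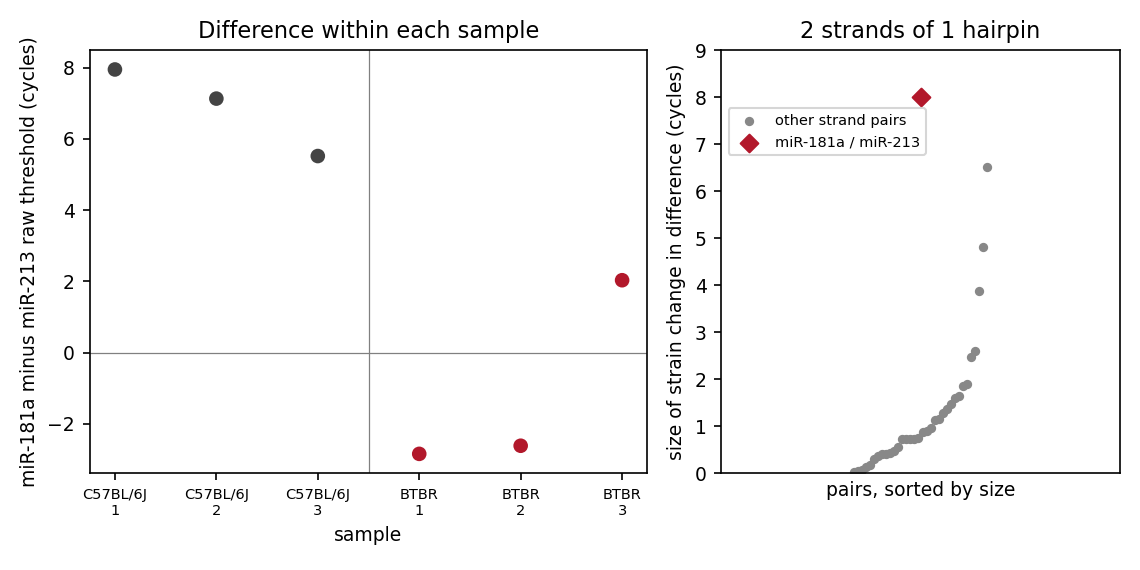
Left, raw threshold of hsa-miR-181a minus that of hsa-miR-213 (y axis, cycles) in each sample (x axis). It runs from 5.52 to 7.95 in C57BL/6J and from -2.85 to 2.03 in BTBR. Right, size of the strain change in such a difference (y axis, cycles). Grey points are 34 pairs matched by hairpin name, sorted by size (up to 6.52), and the red point is this pair (a change of -8.01).

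The paralog hsa-miR-181c was read in BTBR replicates 1 and 2 alone. Its raw thresholds there were 24.51 and 25.4 cycles, and it was undetermined in BTBR replicate 3 and in all 3 C57BL/6J samples. The samples with a reading were the same ones in which hsa-miR-181a had its lowest thresholds. In them hsa-miR-181c came 4.46 and 4.96 cycles after hsa-miR-181a, and 1.61 and 2.34 cycles after hsa-miR-213. With no reading in C57BL/6J there is no fold, and with 2 readings the assay is not in the authors' normalized table, whose rebuilt steps need 3. Over the panel, 54 of 750 assays (7.2%) were read in 2 BTBR and 0 C57BL/6J samples, against 8 in 2 C57BL/6J and 0 BTBR samples. In pool A, which holds hsa-miR-181c, 31 of 377 assays had the first pattern, and in 28 of them the readings were those of BTBR replicates 1 and 2. The neuronal miRNA hsa-miR-9, looked up after values were seen, had this pattern too, with 16.76 and 13.9 cycles, while hsa-miR-9# from the same hairpins was read in all samples at 13.49 to 14.09 cycles.

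The passenger strand of the second miR-181a hairpin, MMU-MIR-181A-2#, was undetermined in all 6 samples. It was 1 of 288 assays of the panel with no reading, 108 of them in pool A. Across the 3 members there were 3 readings in C57BL/6J and 5 in BTBR, of 9 possible in each strain. Only hsa-miR-181a was read in all samples, so no pair of members could be compared between the strains by a test.

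The assays most like hsa-miR-181a over the 6 samples, by Pearson correlation on the global mean scale among 236 assays, were hsa-miR-574-3p (r = 0.997), mmu-miR-140 (0.991) and hsa-miR-484 (0.969). All 3 are pool A assays, the points share the sample's scaling, and r is a description over 6 samples that fall into 2 strains. In hsa-miR-574-3p the raw thresholds were 26.8, 26.11 and 25.36 cycles in C57BL/6J and 23.43, 23.28 and 24.83 cycles in BTBR. In mmu-miR-140 they were 26.36, 26.44 and 25.44 cycles in C57BL/6J and 20.77, 20.85 and 23.37 cycles in BTBR. In hsa-miR-484 they were 23.32, 23.64 and 22.02 cycles in C57BL/6J and 19.14, 19.53 and 21.49 cycles in BTBR. In each of them, as in hsa-miR-181a, BTBR replicate 3 lay between the other BTBR mice and the C57BL/6J mice. That order supports nothing, since the 3 assays were picked for their correlation with hsa-miR-181a. The strain differences on that scale were 1.85, 4.02 and 2.54 (log2), against 7.23 for hsa-miR-181a. The median r of all 236 assays was -0.50, 13 exceeded 0.9, and hsa-miR-213 had r = -0.858.

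**Figure D4:**
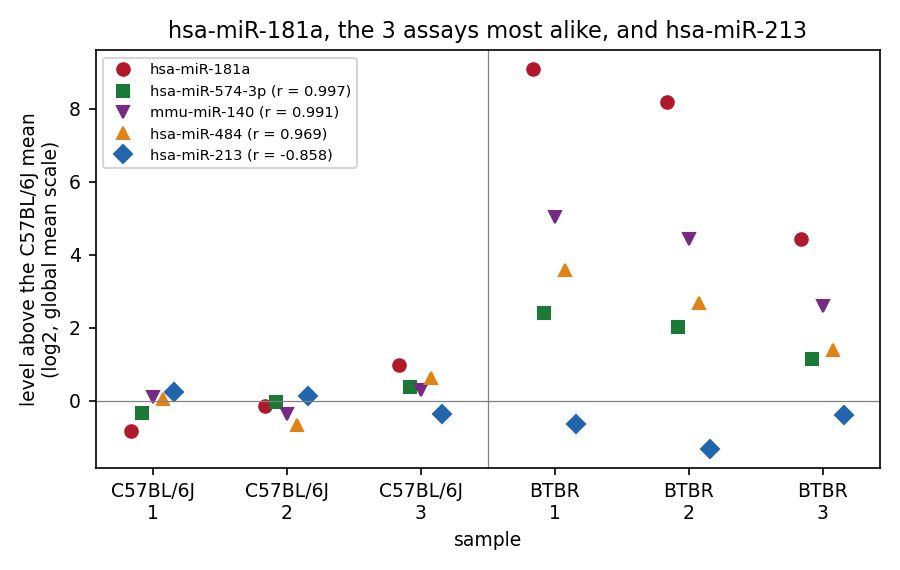
Level above the C57BL/6J mean (y axis, log2, global mean scale) in each sample (x axis) for hsa-miR-181a, the 3 assays most alike and hsa-miR-213. The first 4 are high in BTBR replicates 1 and 2 and lower in replicate 3, and hsa-miR-213 lies on the other side of 0 in BTBR.

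Because miR-181a is abundant in lymphocytes and in neurons, miRNAs of both were set beside it. In tissue RNA, fewer cells of a type and less miRNA per cell cannot be told apart. Of 11 immune assays, 6 were tested: 0 rose, 1 fell (hsa-miR-146a, a brake on innate immune signalling, log2 change -0.99, standard error 0.28, limma adjusted p = 0.0396). Over the panel, 35.5% of tested assays were lower and 1.3% higher. The median change was -0.73, against -1.13 for the panel. The lymphocyte miRNA hsa-miR-150 had raw thresholds of 13.29, 13.29 and 13.78 cycles in C57BL/6J and 14.65, 14.71 and 13.52 cycles in BTBR, so its lowest readings were not those of the mice with the lowest hsa-miR-181a thresholds. The blood cell miRNA hsa-miR-142-3p was read at 21.6 and 23.34 cycles in 2 C57BL/6J mice and at 23.02 to 23.29 cycles in BTBR, and mmu-miR-155 and 1 of the 2 hsa-miR-223 assays had no reading. Other immune assays lay the other way on raw thresholds. For hsa-miR-146b these were 20.32, 20.71 and 20.7 cycles in C57BL/6J and 19.76, 19.67 and 19.63 cycles in BTBR. The strains did not overlap, as for 14.3% of the 237 assays with more in BTBR, but the normalized log2 change was -0.11. Another miR-146b assay, RNO-MIR-146B, had strains that overlapped, with a raw log2 change of 0.08 and a normalized one of -0.74. The second hsa-miR-223 assay had a raw log2 change of 1.32 from 2 C57BL/6J and 3 BTBR readings, and mmu-miR-150# was read in 0 C57BL/6J and 2 BTBR samples. From 5 to 8 of the 11 assays were read in a C57BL/6J sample and from 6 to 9 in a BTBR sample. Their part in the hsa-miR-181a difference was not tested.

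Of 16 neuronal assays, 9 were tested: 0 rose, 1 fell (hsa-miR-129, log2 change -1.67, standard error 0.39, limma adjusted p = 0.0301), against the same 35.5% lower and 1.3% higher over the panel, and the median change was -0.09. The raw change of hsa-miR-129 was -0.15. The raw changes had a median of -0.05 over 10 neuronal assays and -0.07 over 7 immune ones, against -0.01 over 270 assays. The neuronal hsa-miR-132 was read in every sample at 12.0 to 12.68 cycles. For hsa-miR-128a the thresholds were 13.89, 13.99 and 13.81 cycles in C57BL/6J and 14.67, 14.91 and 14.47 cycles in BTBR. The strains did not overlap there, as for 18.1% of the 237 assays with more in C57BL/6J, and the raw log2 change was -0.78. In mmu-miR-137 it was 0.92, with strains that overlapped. The neuron-specific mmu-miR-124a, with 31.4, 24.83 and 24.44 cycles in C57BL/6J and 20.78, 19.79 and 23.29 cycles in BTBR, had its lowest thresholds in the same mice as hsa-miR-181a. The other strand, hsa-miR-124#, went the opposite way, with 22.73, 21.7 and 13.68 cycles in C57BL/6J and no reading in BTBR.

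The remaining lists were small, and their calls stand against the same panel shares. The list of miR-143, miR-145, miR-199a and miR-214 was set down for astrocytes, although these miRNAs are best known from mural and mesenchymal cells. It had 3 tested assays, of which hsa-miR-199a-3p and hsa-miR-214 fell and 0 rose. On raw thresholds their log2 changes were only -0.28 and -0.32. Another miR-214 assay, mmu-miR-214, lay the other way, read in BTBR replicates 1 and 2 alone at 21.79 and 20.49 cycles. One hsa-miR-143 assay (002249) was read at 21.68, 20.83 and 23.72 cycles in BTBR and not in C57BL/6J, while the other (000466) was read in all samples with a raw log2 change of -0.98. Of 3 tested oligodendrocyte assays, 1 fell (hsa-miR-338-3p) and 0 rose. Raw log2 changes were -1.22 for hsa-miR-338-3p, -1.58 for hsa-miR-338, -0.13 for hsa-miR-219 and 0.05 for hsa-miR-219-2-3p. HSA-MIR-338-5P was read late, at 38.9 and 33.6 cycles, in BTBR replicates 1 and 2 alone. The assay rno-miR-219-1-3p was read in 1 C57BL/6J and 2 BTBR samples. Of the red blood cell miRNAs, hsa-miR-486 was read at 16.66, 16.62 and 15.2 cycles in BTBR and not in C57BL/6J, and HSA-MIR-144 had no reading. The erythroid mmu-miR-451 had 21.1, 21.18 and 21.43 cycles in C57BL/6J and 20.72, 19.98 and 19.74 cycles in BTBR, a raw log2 change of 1.08. Its strains did not overlap, as for 14.3% of the 237 assays with more in BTBR. On normalized values its change of -0.21 (standard error 0.33) did not pass, with an adjusted p of 0.64 by limma. The part of these markers in the hsa-miR-181a difference was not tested.

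**Figure D5:**
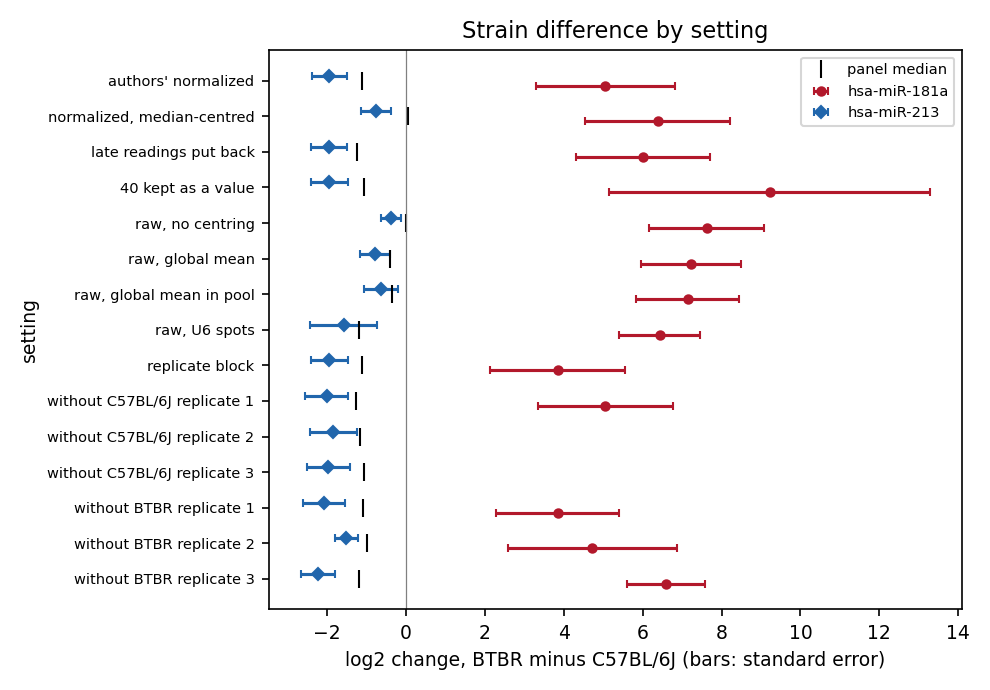
Log2 change, BTBR minus C57BL/6J (x axis, bars are standard errors), of hsa-miR-181a (red) and hsa-miR-213 (blue) under each scale, treatment of the value 40 and omitted sample (y axis), with the panel median as a black mark. The values of hsa-miR-181a run from 3.85 to 9.22 and those of hsa-miR-213 from -2.23 to -0.39. Without C57BL/6J replicate 2 or 3 hsa-miR-181a had too few normalized values to be fitted.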

How the data were processed

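Prefrontal cortex RNA (100 ng, RNA integrity number 9) was purified on standard columns, reverse transcribed, pre-amplified and run on the panel, per the labels' protocols. The authors deposited raw cycle thresholds and, per the file headers, quantile-normalized ones, both in cycles. Per the file headers, the authors' fold table holds the BTBR to C57BL/6J ratio, a log2 difference of mean thresholds (of opposite sign), the score of a test, and p-values before and after adjustment. The software, test variant and further steps are not stated in the sources used here. A rebuild (readings in at least 3 samples, 340 assays, common quantiles) was compared with the 306 assays of the normalized table. It matched their values under 40 within 3.33e-09 cycles. In the 77 cells at 40 with a raw reading, the lowest rebuilt value was 30.03 cycles. The steps that set such values to 40 and dropped the other assays were not rebuilt.

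Minus the normalized thresholds, with 40 as missing, were fitted with limma (version 3.58.1, R 4.3.3) on strain alone, over the 231 assays with at least 2 values per strain, with Benjamini-Hochberg adjustment over all of them at 0.05. The fit was tested on simulated data with independent noise per assay and sample. These data held no shift common to the assays of a sample, so they cannot tell how such a shift moves the calls. Raw alternatives used all readings. Every family assay was named; assays most alike were the 3 with the highest correlation. Members, lists and tests were chosen with earlier results of these data known. A threshold has no counting depth, so precision rests on 1 PCR per assay and 3 mice per strain. Alternatives covered scaling, the value 40, filters, the replicate block and omitted samples.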

Additional observations from a re-analysis of the deposited data

How the results depend on the processing

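The direction of the hsa-miR-181a difference (log2 change 5.05) was the same under all alternatives that gave a value. It was 7.62 on raw thresholds with no centring and 9.22 with 40 kept as a value, between 6.02 and 7.23 on the other scales and with late readings put back, and 3.85 to 6.59 with 1 sample left out. Without C57BL/6J replicate 2 or 3, or with 3 values per strain required, it could not be fitted, and the planned exact permutation test was not run on it, since the normalized table holds 5 values. The -8.01 cycle change of hsa-miR-181a against hsa-miR-213 ran from -9.60 to -7.16 with 1 sample left out. In the normalized table the members had 3 BTBR readings in place of 5, and 2 C57BL/6J readings in place of 3.

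The count of 85 panel assays past the limma threshold was 0 on raw thresholds with the global mean (71 at an unadjusted p under 0.05), with no centring (52) and with a separate global mean per pool (78). It was 1 with U6 spots (hsa-miR-181a, higher, which supports nothing here, since its difference was known when the family was chosen) and 2 with normalized values centred on sample medians (mmu-miR-770-5p lower, HSA-MIR-421 higher). With 1 sample left out it ran from 0 (without C57BL/6J replicate 3, or without BTBR replicate 1, where 99 and 89 had an unadjusted p under 0.05) to 101 (without BTBR replicate 3), with 3 without C57BL/6J replicate 2 and 8 without BTBR replicate 2. The causes were not tested. With the replicate block, 49 assays passed, hsa-miR-181a stood at 3.85, hsa-miR-213 at -1.94 (limma adjusted p = 0.0503) and the within-sample change at -8.01. Same-numbered samples had deviations that correlated at 0.02, 0.41 and -0.10, against -0.51 to 0.33 for pairs with different numbers. The labels do not say that same-numbered mice share anything, and these correlations cannot decide it.

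On the exact permutation test over samples hsa-miR-213 had p = 0.1, the smallest that 3 against 3 can give.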

Other observations

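Among the 34 pairs matched by hairpin name, the 3 largest changes between the strains were those of miR-409, miR-148b and miR-140. In miR-409, of the imprinted Dlk1-Dio3 cluster, hsa-miR-409-3p minus hsa-miR-409-5p went from 5.73 cycles in C57BL/6J to -0.79 in BTBR, with both assays in pool A. A second assay of the same strand did not show this: RNO-MIR-409-3P (pool B) minus hsa-miR-409-5p went from -3.90 to -4.86 cycles, a change of -0.96. In miR-148b, rno-miR-148b-5p minus hsa-miR-148b went from -7.98 to -3.17 cycles, and in miR-140, hsa-miR-140-3p minus mmu-miR-140 went from -4.56 to -0.68 cycles. These pairs were named after their values were seen, and the changes were not tested.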
